A study of Homo sapiens with 12 samples.

Results

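The genes followed here encode 10 enzymes of serine and one-carbon metabolism, which are PHGDH, PSAT1, PSPH, SHMT1, SHMT2, MTHFD1, MTHFD2, MTHFD1L, ALDH1L2 and TYMS. They were taken by gene symbol from the pathway and not by their measured values, and all 10 were found once among the 58735 genes of the count table. The RNA-seq and Ribo-seq libraries came from 293T 4A cells, a derivative of HEK293T, a human embryonic kidney line that carries the SV40 large T antigen. The cells had been transduced with a lentivirus that expresses 4EBP1-4A when doxycycline is added, and were used as a pool sorted on GFP, with their own EIF4EBP1 gene in place. 4EBP1 binds the cap-binding factor eIF4E and blocks translation initiation, and the 4A form has alanine at 4 sites that kinases otherwise phosphorylate, so that it cannot be switched off in that way. The control group received DMSO and the other group received doxycycline at 2 mg/mL. The sample labels and the study's methods give 12 h of treatment, and the series text gives 2 h. The study's results section gives a longer time, so the duration is not settled. Both groups carried the construct, grew in DMEM with 10% serum and added glutamine, and were treated with cycloheximide for 10 min before harvest. No cells without the construct were given doxycycline, so the drug itself was not tested apart from the 4EBP1-4A that it induces. Each group had 3 RNA-seq and 3 Ribo-seq libraries, which is 12 in all. The study calls its replicates biological, while the labels do not say whether they were separate cultures, so p-values measure the spread between these libraries, whatever its source.

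Cells make serine from the glycolytic intermediate 3-phosphoglycerate. PHGDH oxidises it, PSAT1 transfers an amino group from glutamate to the product, and PSPH removes the phosphate. The serine hydroxymethyltransferases SHMT1, in the cytosol, and SHMT2, in mitochondria, split serine into glycine and a carbon unit carried by tetrahydrofolate. In mitochondria MTHFD2 oxidises that unit, MTHFD1L releases it as formate and ALDH1L2 oxidises it to CO2 with the formation of NADPH. In the cytosol MTHFD1 turns formate back into folate-bound carbon for purine synthesis, and TYMS spends it in making thymidylate for DNA. Proliferating cells in culture are known for high levels of the mitochondrial arm. The transcription factor ATF4 is a known activator of genes of this pathway, among them PHGDH, PSAT1, SHMT2, MTHFD2 and ALDH1L2. These examples are not a full list of its targets among the members.

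PSAT1 and MTHFD2 mRNA were the members with the largest differences, and the stretches upstream of their start sites are shown for that reason. Promoter windows of 300 bases, 250 before and 50 after a start site, were given by RefSeq on GRCh38.p14 for 7 of the 10 members and not for PSPH, SHMT2 and ALDH1L2. The first line below shows PSAT1 at chr9:78296875-78297124 and the second shows MTHFD2 at chr2:74198365-74198609, both on the + strand from 5′ to 3′, with the letters CCAAT in capitals. The PHGDH line, at chr1:119711851-119711880 on the + strand, shows the CCAAT of the first enzyme, whose mRNA was not lower.
PSAT1: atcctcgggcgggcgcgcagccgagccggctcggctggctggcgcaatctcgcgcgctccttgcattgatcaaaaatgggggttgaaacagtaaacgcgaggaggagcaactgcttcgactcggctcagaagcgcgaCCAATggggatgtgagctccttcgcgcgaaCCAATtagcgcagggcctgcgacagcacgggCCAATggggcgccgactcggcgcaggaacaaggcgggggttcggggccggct
MTHFD2: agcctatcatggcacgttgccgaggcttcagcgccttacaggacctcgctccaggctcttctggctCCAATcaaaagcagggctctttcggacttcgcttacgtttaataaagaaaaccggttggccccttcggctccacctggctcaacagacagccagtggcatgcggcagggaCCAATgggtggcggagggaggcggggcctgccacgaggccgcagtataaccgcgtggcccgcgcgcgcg
PHGDH: gagtatttccgtCCAATcaaaaggagactg

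CCAAT, read on both strands, was found in the windows of 6 of the 7 members, all but TYMS, beside 34.6% of all 35116 promoter windows. Here and below, a member counts if any of its windows holds the letters, while the shares are of single windows. MTHFD1L had several windows, so the units differ. CCAAT was chosen after the sequences had been seen. The stretch of PSAT1 holds 3 copies and that of MTHFD2 holds 2. The C/EBP-ATF composite element, at which ATF4 is known to bind, was searched as TGATGCAA, which 0.866% of all windows hold, and as TGATGNAA, which contains the former and is held by 3.62%. Among the 7 members it was found in MTHFD1L only, at chr6:150866346-150866375 on the + strand, where the capitals mark it. The E2F letters TTTCCCGC were found in 1.63% of all windows and, among the members, only in that of TYMS, where they lie on the opposite strand and read GCGGGAAA in the + strand stretch chr18:657603-657632.
MTHFD1L: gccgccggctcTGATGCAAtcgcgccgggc
TYMS: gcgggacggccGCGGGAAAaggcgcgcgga

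The other E2F form, TTTGGCGC, is in 0.652% of all windows and in no member's window. The E-box CACGTG is in 7.26% of all windows and in those of MTHFD1 and MTHFD1L. The antioxidant response letters TGACNNNGC are in 13.3% of all windows and in that of MTHFD2. The 2 members with the largest differences held neither form of the composite element in these windows, which says nothing of sites elsewhere.

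RNA-seq depth was 51519700 to 57824136 reads on genes in the DMSO libraries, 47862104 and 45887231 in doxycycline replicates 1 and 2, and 21687906 in doxycycline replicate 3. That library stood apart. Only 5.94% of its reads fell on genes, against 19.7% to 30.8% in the other 5, and 88.4% of its reads did not align uniquely, against 54.9% to 69.9%. Mitochondrial transcripts made up 5.76% of its gene reads, against 11.8% to 15.8%. Its level lay outside the range of the other 5 libraries for 81.5% of the tested genes and for 8 of the 10 members, 5 of which were lowest and 3 highest there. Doxycycline replicates 1 and 2 also had smaller shares of reads on genes, at 22.9% and 19.7%, than the lowest DMSO library, at 25.2%. Of all pairs of libraries, DMSO replicate 2 and doxycycline replicate 1 were the most alike in gene counts (chi-square per degree of freedom 5.45, against 8.80 to 13.3 within groups when doxycycline replicate 3 is left out). The part of these differences between libraries in the results on the enzymes was not tested. Fold changes are therefore given with doxycycline replicate 3 and without it. The 9 markers of HEK293 cells, among them VIM, KRT18 and NEFM, all reached a level of 1 CPM (the count on a gene scaled to a common library size) in every library, with summed levels of 1133 to 1233 CPM in DMSO and 1256 to 1558 CPM in doxycycline. Of 11 skin markers only KRT10 reached 1 CPM, with KRT5, KRT14 and DCD at 0, and the summed level was 5.47 to 6.02 CPM in DMSO and 2.94 to 5.40 CPM in doxycycline. None of 8 blood markers reached 1 CPM.

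EIF4EBP1, the gene that the construct adds to, had 8501, 8244 and 8252 reads in the DMSO libraries and 12216, 13028 and 6778 in the doxycycline libraries. After scaling for depth by TMM, a method that sets libraries to a common level over most genes, this was 153, 154 and 168 CPM against 258, 279 and 285 CPM, with no overlap between groups. The log2 fold change was 0.79 ± 0.093 (SE) with all 6 libraries and 0.76 ± 0.065 (SE) without doxycycline replicate 3. The construct and the cells' own gene are not separated in these counts.

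In DMSO, mRNA levels of the enzymes per kilobase of the reference transcript differed widely. PHGDH was highest at 258 ± 19.5 RPKM (SD, n = 3; RPKM is TMM-scaled CPM per kilobase), followed by PSAT1 at 167 ± 8.26, SHMT2 at 122 ± 7.38, MTHFD1 at 101 ± 1.30 and MTHFD2 at 72.8 ± 5.74 RPKM. TYMS at 49.4 ± 1.97 and MTHFD1L at 48.1 ± 1.80 RPKM overlapped between libraries and could not be ordered. The same held for SHMT1 at 22.4 ± 0.775 and PSPH at 21.9 ± 1.05 RPKM. ALDH1L2 was lowest at 16.6 ± 1.73 RPKM. All other neighbours in this order had separate ranges over the 3 libraries. Even ALDH1L2 stood above 77.4% of the tested genes, and PHGDH above 99.4%. The order depends on the length used, since with the summed length of all annotated exons PSAT1 came first, followed by SHMT2 and then PHGDH. In the mean of the 3 doxycycline libraries PSAT1 had rank 4, below SHMT2 and MTHFD1, and MTHFD2 had rank 7. Without doxycycline replicate 3 PSAT1 kept rank 2, at 115 RPKM beside 114 for MTHFD1, with ranges that overlapped, so its lower rank rested on that library. MTHFD2 was then also at rank 7, at 52.8 RPKM, beside 53.8 for MTHFD1L and 56.0 for TYMS, and its 2 values, 56.7 and 48.9, lay on both sides of theirs.

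With doxycycline, PSAT1, MTHFD2 and ALDH1L2 mRNA were lower, and the other 7 enzymes did not pass the test at an adjusted p of 0.05. These calls were made without doxycycline replicate 3, where PSAT1 was at 68.7%, MTHFD2 at 72.5% and ALDH1L2 at 80.4% of the DMSO level. With all 6 libraries no member and no other gene passed this test, which is that of edgeR, while other tests of the same libraries called some, as given next. In RNA from whole cultures, fewer cells with an mRNA and less of it per cell cannot be told apart. Since every library came from cells with the construct, the drug itself was not tested apart from the induced protein.

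The calls were made with the quasi-likelihood test of edgeR over every gene that had 10 or more reads in 3 or more libraries. With 3 against 3 libraries, 0 of 20552 genes had an adjusted p under 0.05 (0%), while 3073 (15%) had an unadjusted p under 0.05, among them 4 members, PSAT1, MTHFD2, ALDH1L2 and SHMT1. DESeq2 called 1 gene higher, EIF4EBP1, and 2 lower in the same libraries. Without doxycycline replicate 3, 1442 of 20459 genes were called (7.05%), of which 769 were higher (3.76%) and 673 lower (3.29%). Of the members, 3 of 10 were called lower and 0 higher. At an unadjusted p under 0.05 there were 4 lower and 4 higher members, all but PHGDH and PSPH, beside 25.8% of all genes. The Wald test of DESeq2 called the same 3 and SHMT2 lower, and MTHFD1 higher, with 996 genes higher and 1054 lower over all genes. With library totals in place of TMM the split over all genes was 1442 higher and 338 lower, and the median log2 fold change of all genes moved from -0.00057 to 0.055. PSAT1 and MTHFD2 were then called lower, and SHMT1, MTHFD1, MTHFD1L and TYMS higher. When limma voom weighted the 6 libraries by their quality, with a weight of 0.083 for doxycycline replicate 3 and 0.648 to 5.03 for the others, 8 of 10 members passed, beside 36.7% of all genes. PHGDH and PSPH did not.

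**Figure D1:**
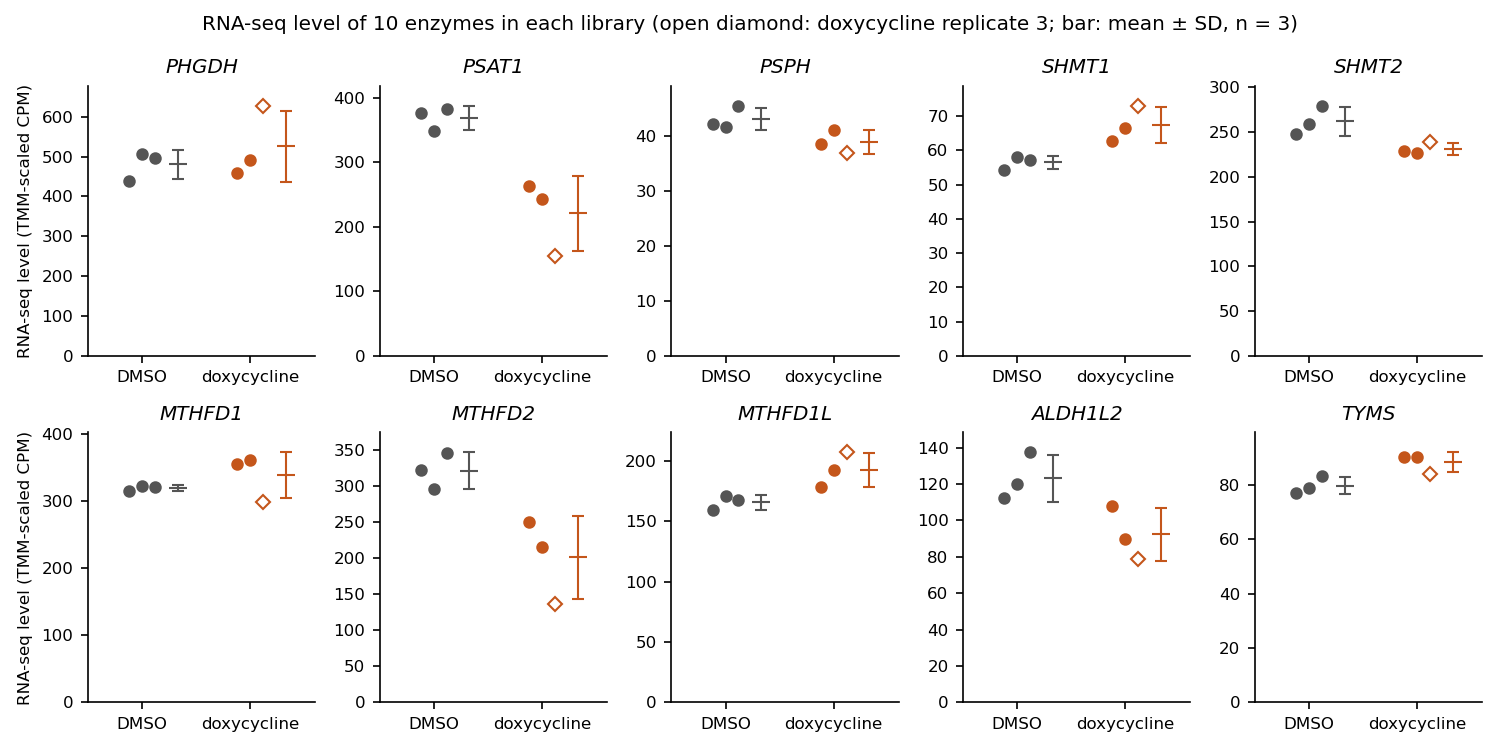
RNA-seq level of each of the 10 enzymes in TMM-scaled CPM (vertical axes, each starting at 0) in the 3 DMSO libraries (grey) and the 3 doxycycline libraries (orange), with doxycycline replicate 3 as an open diamond and the mean ± SD beside the points. All doxycycline points lie below all DMSO points for PSAT1, PSPH, SHMT2, MTHFD2 and ALDH1L2 and above them for SHMT1, MTHFD1L and TYMS, while PHGDH and MTHFD1 overlap.

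The order of the libraries is shown in the plot of levels by library. All 3 doxycycline libraries lay below all 3 DMSO libraries for 5 members, PSAT1, PSPH, SHMT2, MTHFD2 and ALDH1L2, beside 18.9% of all tested genes. They lay above for 3 members, SHMT1, MTHFD1L and TYMS, beside 19.7% of all tested genes. The groups overlapped for PHGDH and MTHFD1.

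The 3 enzymes of serine synthesis differed from each other. PHGDH (ENSG00000092621, chromosome 1 of GRCh38 from 119648411 to 119744218, + strand), the first enzyme, was at 439, 507 and 496 CPM in DMSO and at 459, 491 and 627 CPM in doxycycline. Replicates 1 and 2 of doxycycline fell within the DMSO range and replicate 3 above it. Its log2 fold change was 0.13 ± 0.136 (SE, adjusted p = 0.547) with all libraries and -0.02 ± 0.0689 (SE, adjusted p = 0.905) without replicate 3, so even its sign rested on that library.

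PSAT1 (ENSG00000135069, chromosome 9 from 78297125 to 78330093, + strand), whose upstream stretch with 3 CCAAT copies is printed above, was at 376, 348 and 382 CPM in DMSO and at 264, 243 and 155 CPM in doxycycline. Each doxycycline library was below the lowest DMSO library, and replicate 3 was the lowest, at 61.3% of the mean of the other two. On the log2 scale the change was -0.74 ± 0.191 (SE, unadjusted p = 0.00539, adjusted p = 0.303) with all 6 libraries. Without replicate 3 it was -0.54 ± 0.0665 (SE, adjusted p = 0.00088), a fall of 31.3%, and this was the member with the smallest p. The call was kept in each alternative of that fit, also with any further library left out (adjusted p at most 0.018).

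PSPH (ENSG00000146733, chromosome 7 from 56011051 to 56051604, - strand), the last enzyme of the route, was at 42.3, 41.7 and 45.5 CPM in DMSO and at 38.6, 41.2 and 37.0 CPM in doxycycline. The groups did not overlap, by a margin of less than 1 CPM. PSPH changed by -0.15 ± 0.101 (SE, adjusted p = 0.365) on the log2 scale, and by -0.11 ± 0.0740 (SE, adjusted p = 0.355) without replicate 3.

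Of the serine hydroxymethyltransferases, the cytosolic and the mitochondrial form lay on opposite sides of the DMSO level, though neither passed the test. SHMT1 (ENSG00000176974, chromosome 17 from 18327860 to 18363563, - strand) was at 54.2, 57.9 and 57.3 CPM in DMSO and at 62.6, 66.4 and 72.9 CPM in doxycycline. SHMT2 (ENSG00000182199, chromosome 12 from 57229573 to 57234935, + strand) was at 248, 259 and 279 CPM in DMSO and at 229, 227 and 239 CPM in doxycycline. In both genes the groups did not overlap, and replicate 3 of doxycycline lay nearer to DMSO than the other two for SHMT2 and farther for SHMT1. The log2 fold change of SHMT1 was 0.25 ± 0.102 (SE, adjusted p = 0.303) and, without replicate 3, 0.19 ± 0.0675 (SE, adjusted p = 0.0865). That of SHMT2 was -0.18 ± 0.0902 (SE, adjusted p = 0.304) and, without replicate 3, -0.20 ± 0.0652 (SE, adjusted p = 0.0625).

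Among the enzymes that interconvert folate-bound carbon, MTHFD2 and ALDH1L2, both mitochondrial, were called lower without replicate 3, and MTHFD1L, also mitochondrial, was not. MTHFD2 (ENSG00000065911, chromosome 2 from 74186172 to 74217565, + strand) was at 321, 295 and 346 CPM in DMSO and at 250, 215 and 137 CPM in doxycycline. All doxycycline libraries were below all DMSO libraries, and replicate 3 was at 58.8% of the mean of the other two. Its log2 fold change was -0.68 ± 0.209 (SE, unadjusted p = 0.0134, adjusted p = 0.303) with all libraries and -0.46 ± 0.0763 (SE, adjusted p = 0.0049) without replicate 3, a fall of 27.5%. With doxycycline replicate 2 left out as well, so that replicate 1 stood alone, the adjusted p was 0.110 and the log2 fold change -0.36.

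ALDH1L2 (ENSG00000136010, chromosome 12 from 105019784 to 105107643, - strand) was at 112, 120 and 137 CPM in DMSO and at 108, 90.0 and 78.8 CPM in doxycycline. Doxycycline replicate 1 lay just below the lowest DMSO library, and replicates 2 and 3 well below. On the log2 scale ALDH1L2 changed by -0.42 ± 0.144 (SE, adjusted p = 0.303), and -0.31 ± 0.0855 (SE, adjusted p = 0.0361) without replicate 3, a fall of 19.6%. This was the least firm of the 3 calls, and it was lost with library totals (adjusted p = 0.0550), with DMSO replicate 3 left out as well (adjusted p = 0.126) and with doxycycline replicate 2 left out as well (adjusted p = 0.498).

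MTHFD1L (ENSG00000120254, chromosome 6 from 150865679 to 151101887, + strand), the formate-releasing enzyme, was at 159, 171 and 168 CPM in DMSO and at 179, 192 and 207 CPM in doxycycline. Each doxycycline library was above each DMSO library. MTHFD1L changed by 0.22 ± 0.0963 (SE, adjusted p = 0.303) on the log2 scale and, without replicate 3, 0.16 ± 0.0637 (SE, adjusted p = 0.120). It was the member with the C/EBP-ATF letters in its window.

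MTHFD1 (ENSG00000100714, chromosome 14 from 64388031 to 64463457, + strand), the cytosolic enzyme with 3 activities, was at 315, 322 and 322 CPM in DMSO and at 355, 361 and 299 CPM in doxycycline. Replicates 1 and 2 were above DMSO and replicate 3 below it, so the groups overlapped. MTHFD1 changed by 0.08 ± 0.101 (SE, adjusted p = 0.602) on the log2 scale and, without replicate 3, 0.16 ± 0.0593 (SE, adjusted p = 0.0916).

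TYMS (ENSG00000176890, chromosome 18 from 657653 to 673578, + strand), which makes thymidylate, was at 77.1, 78.7 and 83.3 CPM in DMSO and at 90.3, 90.5 and 84.0 CPM in doxycycline. Replicate 3 lay within 1 CPM of the highest DMSO library and the other two clearly above. TYMS changed by 0.15 ± 0.0929 (SE, adjusted p = 0.343) on the log2 scale and, without replicate 3, 0.18 ± 0.0641 (SE, adjusted p = 0.0865).

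**Figure D2:**
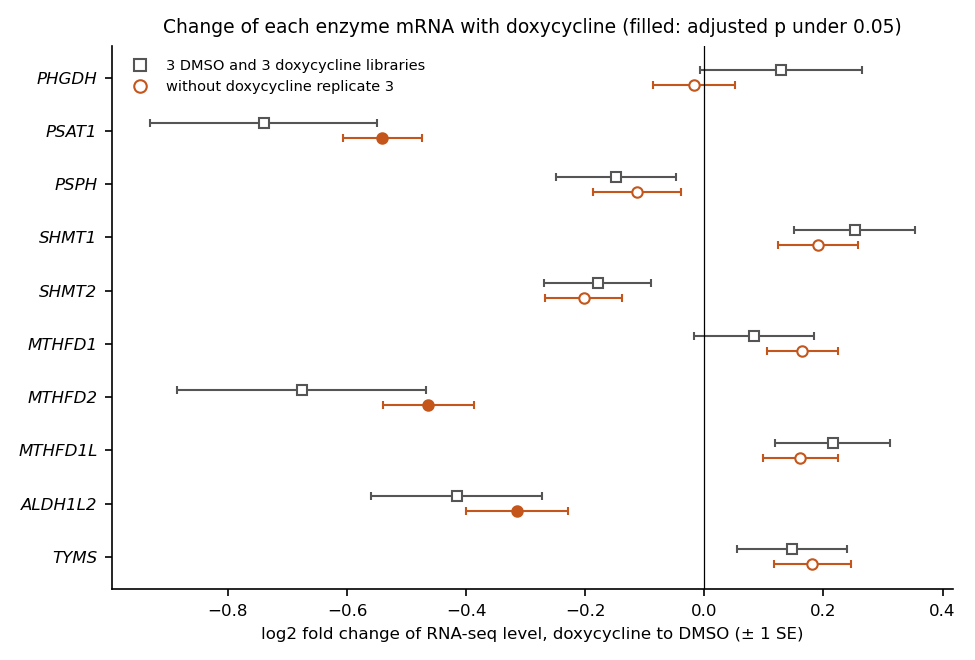
Log2 fold change of RNA-seq level, doxycycline to DMSO (horizontal axis, points with bars of 1 SE), for the 10 enzymes with all 6 libraries (grey squares) and without doxycycline replicate 3 (orange circles), with filled points where the adjusted p is under 0.05. PSAT1, MTHFD2 and ALDH1L2 are filled without replicate 3, at -0.54, -0.46 and -0.31, and no point is filled with all 6 libraries.

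The plot of log2 fold changes shows what replicate 3 adds. It widened the errors, from 0.0593 to 0.0855 without it to 0.0902 to 0.209 with it, and it moved PSAT1, MTHFD2 and ALDH1L2 farther from 0. Over all genes the log2 level of replicate 3 relative to the mean of replicates 1 and 2 had a median of -0.01, with a 5th percentile of -1.12 and a 95th percentile of 1.01. PSAT1 at -0.71 and MTHFD2 at -0.77 lay inside that range, and 15.1% of genes were at or below the value of PSAT1. The median of the 10 members was -0.03 with all libraries and -0.07 without replicate 3, beside 0.0029 and -0.00057 over all tested genes. The members lay on both sides of 0 in both fits.

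Ratios of enzymes that work on the same carbon unit in mitochondria and cytosol were taken within each library, where depth and scaling cancel. SHMT2 mRNA exceeded SHMT1 mRNA per kilobase by 5.35, 5.25 and 5.71 times in DMSO and by 4.28, 4.01 and 3.84 times in doxycycline. Every doxycycline library was below every DMSO library. The log2 ratio was 2.44 ± 0.064 (SD, n = 3) in DMSO and 2.01 ± 0.078 (SD, n = 3) in doxycycline, a difference of -0.43 (exact permutation test, two-sided, p = 0.1, adjusted over the 3 ratios 0.15). No p below 0.1 can be reached with 3 against 3. Without replicate 3 the difference was -0.39.

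The MTHFD2 to MTHFD1 ratio was 0.731, 0.657 and 0.770 in DMSO and 0.504, 0.427 and 0.327 in doxycycline, again without overlap. The log2 ratio differed by -0.80 (exact permutation test, two-sided, p = 0.1, adjusted 0.15), and by -0.63 without replicate 3. For MTHFD1L to MTHFD1 the ratio was 0.461, 0.485 and 0.476 in DMSO and 0.459, 0.487 and 0.632 in doxycycline. Here replicates 1 and 2 of doxycycline lay at the DMSO values and replicate 3 alone above them. The log2 difference of 0.14 (exact permutation test, two-sided, p = 0.5, adjusted 0.5) became -0.0033 without that library.

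**Figure D3:**
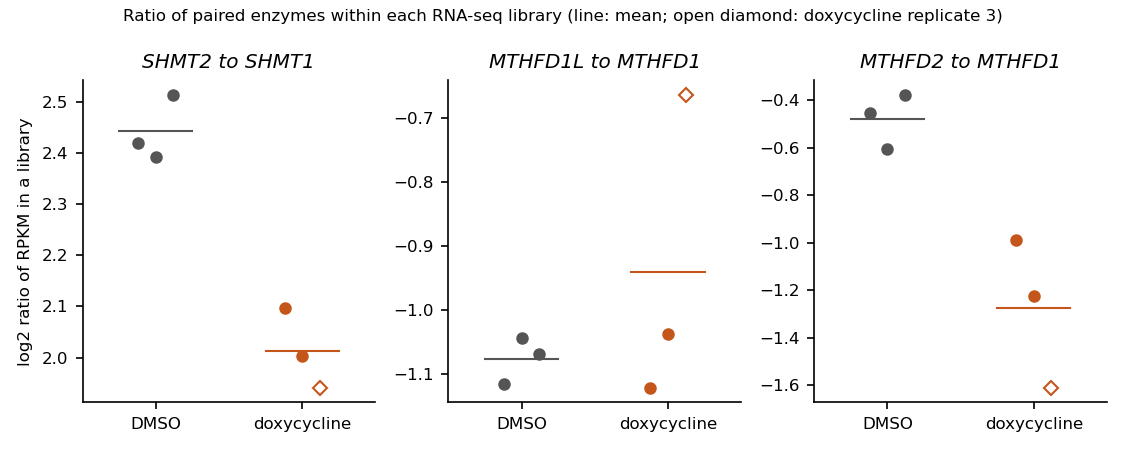
Log2 ratio of RPKM of 3 pairs of enzymes within each RNA-seq library (vertical axes, each with its own range), with DMSO in grey, doxycycline in orange, doxycycline replicate 3 as an open diamond and lines at the group means. The doxycycline libraries lie below the DMSO libraries for SHMT2 to SHMT1 and MTHFD2 to MTHFD1, while for MTHFD1L to MTHFD1 only replicate 3 is apart from the rest.

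Other genes of the pathway were counted from lists that were not drawn up by how their genes moved in this fit, though earlier results of these data were known. With all 6 libraries edgeR called none of these genes. The counts that follow are those of edgeR without doxycycline replicate 3, where 7.05% of all genes were called and the median was -0.00057. They rest on few libraries, since with doxycycline replicate 2 left out as well, the only call that stayed in any list was 1 gene of the ATF4 list.

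Of the genes of the folate cycle and folate transport, 18 of 21 were tested, 3 were higher, 1 was lower and 14 were not called, with a median log2 fold change of 0.05. SLC19A1, the reduced folate carrier, was at 55.3, 67.1 and 63.9 CPM in DMSO and at 81.9, 94.1 and 146 CPM in doxycycline, and its log2 fold change was 0.50 ± 0.0812 (SE, adjusted p = 0.00481). ATIC, which carries out the last steps of purine synthesis with a folate-bound carbon, changed by 0.38 ± 0.0678 (SE, adjusted p = 0.0078) on the log2 scale. FPGS, which adds glutamates to folate and keeps it in the cell, changed by 0.34 ± 0.0720 (SE, adjusted p = 0.0159). GGH, which removes those glutamates, changed the other way, by -0.32 ± 0.0796 (SE, adjusted p = 0.0275). In all of them the groups were separate over all 6 libraries, beside 18.9% of all tested genes with doxycycline below DMSO and 19.7% above. These genes were picked by their calls in mostly the same libraries, so the separation is no further support. Their log2 fold changes with doxycycline replicate 3 were 0.79 for SLC19A1, 0.36 for ATIC, 0.61 for FPGS and -0.60 for GGH.

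Among genes of serine and glycine handling, 20 of 21 were tested, 1 was higher and 2 were lower, with a median of -0.08. SLC38A2, a sodium-coupled transporter of small neutral amino acids, was at 350, 317 and 390 CPM in DMSO and at 263, 216 and 111 CPM in doxycycline. Its log2 fold change was -0.55 ± 0.0867 (SE, adjusted p = 0.00416). SLC38A1, a related transporter, changed by -0.29 ± 0.0644 (SE, adjusted p = 0.0181), and SDSL, a serine dehydratase-like enzyme, changed by 0.35 ± 0.0976 (SE, adjusted p = 0.0375). With doxycycline replicate 3 the values were -0.84 for SLC38A2, -0.49 for SLC38A1 and 0.55 for SDSL.

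In the methionine cycle and transsulfuration list, 10 of 12 genes were tested, 0 were higher and 2 were lower, with a median of -0.07. CTH, which makes cysteine from cystathionine, was at 40.7, 38.6 and 46.2 CPM in DMSO and at 30.6, 26.0 and 19.2 CPM in doxycycline. Its log2 fold change was -0.56 ± 0.0899 (SE, adjusted p = 0.00455). MAT2B, the regulatory subunit of methionine adenosyltransferase, changed by -0.26 ± 0.0739 (SE, adjusted p = 0.0388). With doxycycline replicate 3 these were -0.72 for CTH and -0.50 for MAT2B. Of 9 genes of thymidylate and deoxynucleotide supply, all were tested and edgeR called RRM2, a ribonucleotide reductase subunit, at -0.27 ± 0.0759 (SE, adjusted p = 0.0421), or -0.46 with doxycycline replicate 3, and no other, with a list median of -0.05. DESeq2 called 2 of this list lower, and edgeR called none with library totals or with DMSO replicate 1, DMSO replicate 3 or doxycycline replicate 2 left out as well. None of 12 S phase genes was called by edgeR, with 3 higher and 2 lower at an unadjusted p under 0.05, and their median was 0.11. DESeq2 called 1 of them higher and 1 lower. With other settings edgeR also called some, 2 higher with library totals and 2 higher and 2 lower with the replicate block. It called 2 lower with DMSO replicate 2 left out as well.

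The list of ATF4 and its known targets outside the pathway held 19 genes, of which 7 were lower, 0 higher and 12 not called by edgeR, with a median of -0.28. None was higher at an unadjusted p under 0.05 or by DESeq2, which called 5 lower. ATF4 itself, chosen here after its value was seen, was among the 7, at -0.27 (adjusted p = 0.0249). CHAC1, which degrades glutathione, was at 25.8, 34.2 and 46.7 CPM in DMSO and at 21.6, 18.8 and 24.4 CPM in doxycycline, and its log2 fold change was -0.81 ± 0.156 (SE, adjusted p = 0.0108). SLC7A11, the cystine transporter, changed by -0.80 ± 0.0988 (SE, adjusted p = 0.00088). ASNS, asparagine synthetase, changed by -0.47 ± 0.112 (SE, adjusted p = 0.0230), and VLDLR, a lipoprotein receptor, by -0.37 ± 0.0775 (SE, adjusted p = 0.0151). With doxycycline replicate 3 the log2 fold changes were -0.72 for CHAC1, -1.08 for SLC7A11, -0.56 for ASNS and -0.51 for VLDLR, and the list median was -0.10. Some genes of the list, such as DDIT3 at 28.6, 47.6 and 86.2 CPM, also differed widely among the DMSO libraries. Others, such as VLDLR at 36.0, 37.1 and 39.7 CPM, differed little. The part of this spread in the list median was not tested. The 7 calls became 12 without DMSO replicate 1, 11 without DMSO replicate 2 and 4 without DMSO replicate 3, each left out beside doxycycline replicate 3. With doxycycline replicate 1 or 2 also left out the count moved too, but 1 library then stood alone in that group. Calls over all genes also moved with the test and the library left out, as given in the last section. These counts are therefore not a trait of the list alone.

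**Figure D4:**
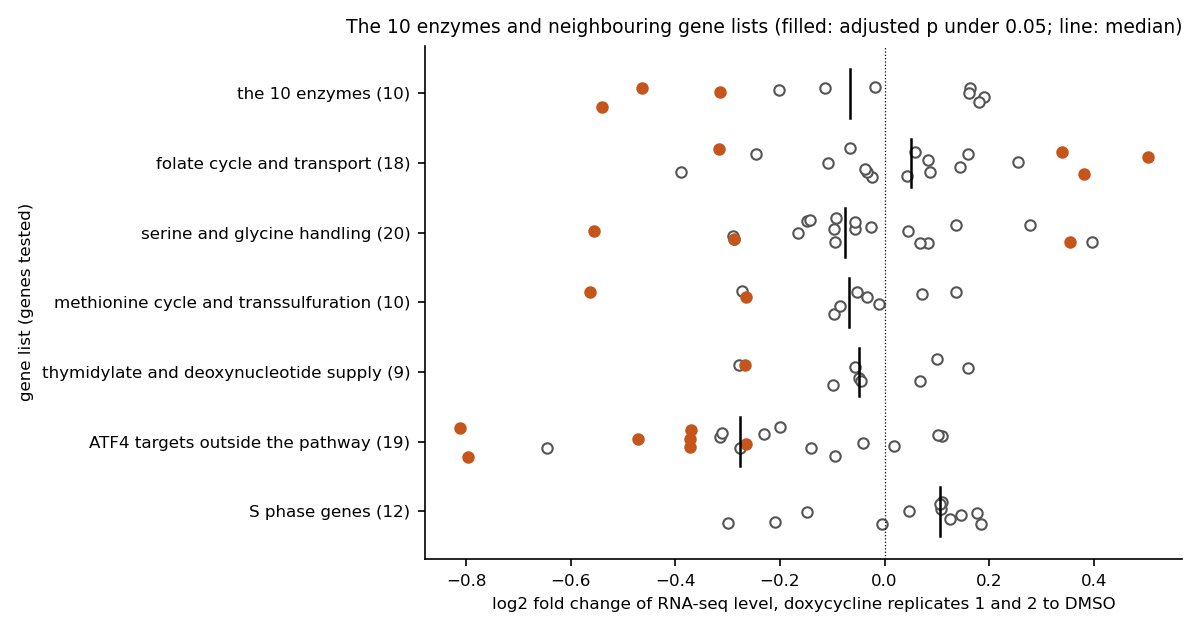
Log2 fold change of RNA-seq level in doxycycline replicates 1 and 2 relative to DMSO (horizontal axis) for the 10 enzymes and for 6 lists of neighbouring genes (rows, with the number of genes tested), with filled points where the adjusted p is under 0.05 and a line at each median. The ATF4 list has 7 filled points, all below 0, and its median of -0.28 is the lowest of the rows, while the enzymes have 3 filled points, all below 0, and a median of -0.07.

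In the plot of gene lists, the called members lie below 0. So do all called genes of the ATF4, methionine and deoxynucleotide lists, and 673 of the 1442 genes called over all genes. The 7 members that were not called lie on both sides of 0. PHGDH and SHMT2, also named above as targets of ATF4, were among those not called by edgeR. So was MTHFD1L, whose window holds the composite element and which lay above 0. No test of the difference between lists was made.

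Reads of other genes could enter the members' counts, and reads on exon bases shared with another gene could be missing from them as ambiguous. Whether reads were counted by strand is not given in the sources used here, and 13 annotated genes share exon bases with a member, 12 of them on the opposite strand. For TYMS the partner ENOSF1 shares 967 bases and had 20735 reads over the 6 RNA-seq libraries, 89.8% of those of TYMS. For ALDH1L2 the partners WASHC4 and C12orf45 share 131 and 145 bases and had 28915 and 13718 reads. For SHMT1 the partner SMCR8 shares 197 bases, and for MTHFD1 the partner ZBTB25 shares 178 bases. For MTHFD2 the partner SLC4A5 shares 1324 bases but had only 126 reads, 0.166% of those of MTHFD2. PSAT1, PHGDH, PSPH and MTHFD1L had no such partner. The 16 pseudogenes named after 6 of the members had together at most 0.170% of the reads of their parent gene.

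In Ribo-seq the enzymes could not be compared. The libraries held 210186 to 1002424 reads on genes in DMSO and 299907 to 883572 in doxycycline, and over all 6 of them the 10 members had 22 reads, against 586997 in RNA-seq. PSAT1, PSPH, SHMT1, MTHFD1, MTHFD2 and ALDH1L2 had 0 reads in every Ribo-seq library, which, by counting error alone and with 3 reads as the limit, allows up to 2.99 to 14.3 CPM per library in DMSO and 3.40 to 10.0 CPM in doxycycline. PHGDH had 3 reads, all in doxycycline replicate 3. MTHFD1L had 4, all in doxycycline replicate 1. TYMS had 5, of which 1 was in DMSO replicate 2, 3 in doxycycline replicate 1 and 1 in doxycycline replicate 2.

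SHMT2 was the only member with 10 Ribo-seq reads, 4 of them in DMSO replicate 3 and 6 in doxycycline replicate 3, with none in the other 4 libraries. Scaled by library totals, the mean was 1.33 CPM in DMSO and 6.67 CPM in doxycycline, a difference of 5.34 CPM (exact permutation test, two-sided, p = 1.0) that rested on 1 library of each group. With TMM-scaled library sizes it was 1.91 CPM and 4.65 CPM, a difference of 2.74 CPM. With so few reads on the enzymes, no change in their ribosome occupancy could be measured. PSAT1 had 0 reads among the 1002424 on genes in DMSO replicate 3. Only 233 to 497 genes reached 10 reads in a Ribo-seq library, against 18258 to 20881 in an RNA-seq library. Why the enzymes had so few Ribo-seq reads was not tested.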

How the data were processed

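The 10 enzymes and all gene lists were chosen with earlier results of these data known. Total RNA and ribosome-protected fragments were sequenced in 3 DMSO and 3 doxycycline samples. The deposited counts are raw reads per gene. The authors trimmed the linker from Ribo-seq reads, removed ribosomal RNA, aligned with STAR to GRCh38 per the methods, and assigned the unique alignments to exons. The labels name Ensembl release 75 and the submitters' processing notes GRCh37, so genes were matched by Ensembl ID to GENCODE release 44 (99.1% of IDs), from which the coordinates, on GRCh38, and reference transcript lengths were taken. The authors' table of translation efficiency holds their ratios, fold changes and p-values, and only its gene symbols were used.

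Rows that name no gene, which hold reads that were not unique, ambiguous or off genes, and 92 spike-in rows were left out. Gene rows held between 5.94% and 30.8% of the RNA-seq reads, and between 0.888% and 2.95% of the Ribo-seq reads. Genes that reached 10 reads in 3 or more libraries were tested with the quasi-likelihood test of edgeR 4.0.16 (R 4.3.3) after TMM scaling, with Benjamini-Hochberg adjustment over all tested genes at 0.05, with and without doxycycline replicate 3. SE is the log2 fold change divided by the square root of F. RNA-seq CPM and RPKM were computed from the counts with TMM-scaled library sizes, and Ribo-seq CPM with library totals. Ratios and SHMT2 Ribo-seq CPM were compared by exact permutation tests (scipy 1.17.1). No libraries were identical.

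Alternatives were DESeq2 1.42.0 size factors and its Wald test, library totals, other filters, limma 3.58.1 voom with sample quality weights, a replicate block, and leaving out each library. TMM factors from all genes before filtering, and a further library left out beside doxycycline replicate 3, were added after seeing the data. Only the quasi-likelihood fit of edgeR was tried on simulated counts. These had the same dispersion for all genes and no library that stood apart, so they do not show its power in these libraries. Genes named beside the members were EIF4EBP1, overlapping genes, pseudogenes and up to 4 genes of each list with the largest absolute log2 fold change among those called without doxycycline replicate 3.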

Additional observations from a re-analysis of the deposited data

How the results depend on the processing

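With all 6 libraries, 0 genes and 0 members were called in either direction, also with DESeq2 size factors, library totals, both other filters, the replicate block and TMM factors from all genes. The DESeq2 Wald test called 1 gene higher and 2 lower, and voom with sample quality weights called 3810 higher, 3724 lower and 8 members. Leaving out 1 library gave 0 to 769 genes higher, 0 to 673 lower and 0 to 3 members, all above 0 only without doxycycline replicate 3, and for PHGDH log2 fold changes of -0.017 to 0.218, below 0 only without that library.

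Without doxycycline replicate 3, the counts of 769 higher, 673 lower and 3 members became 1442, 338 and 6 with library totals, 996, 1054 and 5 with the DESeq2 Wald test, and 2121, 2220 and 8 with the replicate block. Leaving out a further library gave 2 to 1483 higher, 7 to 1549 lower and 1 to 3 members. The lowest counts came without doxycycline replicate 2, where replicate 1 stood alone and was assumed to vary like the DMSO libraries. The log2 fold change of PHGDH, -0.017, turned to 0.039 with library totals and 0.0081 with the replicate block, and was -0.0785 to 0.030 with a further library left out. No other member changed sign. The cause was not tested.

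The labels do not say whether replicate numbers pair the libraries. Deviations from the group means correlated by 0.46, -0.45 and 0.025 between libraries of the same number. Such deviations cancel within a group and are dominated by doxycycline replicate 3, so they cannot decide whether the numbers pair. The block gave p = 0.25 (exact permutation test) for SHMT2 to SHMT1 and MTHFD2 to MTHFD1, the smallest p that this paired test can reach here. With 1 library left out, the log2 differences were -0.47 to -0.39, -0.94 to -0.63 and, for MTHFD1L to MTHFD1, -0.0033 to 0.23, and the SHMT2 Ribo-seq difference was -1.33 to 8.67 CPM, below 0 without doxycycline replicate 3. The small number of reads on the enzymes limits the Ribo-seq values, and doxycycline replicate 3 the RNA-seq errors.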
